A study of Gallus gallus with 16 samples.

Results

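The pituitary gland and the ovary of laying hens were compared across the whole transcriptome. The 11 libraries of these organs were chosen by their tissue label from the 16 libraries of a series on the hypothalamus, pituitary and ovary of Luhua hens, a Chinese chicken breed. All hens were female, 300 days old and fed and watered freely. They had been ranked by total egg number, and came from the high (HEP) or the low (LEP) end of the flock. The pituitary was sampled from 6 hens (3 HEP, numbered 1 to 3, and 3 LEP, numbered 4 to 6) and the ovary from 5 of the same hens (2 HEP, hens 1 and 3, and 3 LEP). The labels name no treatment beyond the choice by egg number. Each library is total RNA of an organ piece, so each value averages over all the cells of that piece. The labels give neither the region of the ovary taken nor the time since the last ovulation.

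The anterior pituitary secretes peptide hormones into the blood, among them the gonadotrophins, prolactin, growth hormone, thyrotrophin and corticotrophin, and a few such transcripts can dominate its RNA. The hen ovary holds germ cells, steroid-producing granulosa and theca cells, and a stroma rich in vessels and matrix, and it answers the gonadotrophins with steroid hormones and follicle growth. The pair are thus sender and receiver of the same endocrine axis, built from very different cells.

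Expression was deposited as FPKM, in which fragments are divided by transcript length and by library size. Of 17108 genes, 12638 had a mean of at least 1 FPKM over the 11 libraries and were tested, and 4470 did not, of which 1888 were listed at 0 throughout. The gene just inside this limit had a mean of 1.0006 FPKM and the gene just outside 0.9993 FPKM. Genes carry Ensembl identifiers that could not be matched to symbols here (0 of 17108), so no gene is named by function, hormones and steroid enzymes included. The organ labels could therefore not be checked against marker genes. By correlation the libraries followed their labels. Across the tested genes, on the log2(FPKM + 1) scale, pituitary libraries correlated with each other at r of 0.94 to 0.97, ovary libraries at 0.93 to 0.96, and libraries of different organs at 0.63 to 0.69. Pituitary and ovary of a single hen correlated at 0.64 to 0.68, inside the range for different hens. The first principal component held 77.8% of the variance and separated the organs, and the second held 4.68%. How many reads stand behind each library cannot be read from the table.

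The organs differed in a large part of their genes by 2-fold or more. In the pituitary 1515 genes were higher than in the ovary, and in the ovary 3220 genes were higher than in the pituitary. Together these 4735 genes are 37.5% of the 12638 tested, 12.0% in the pituitary direction and 25.5% in the ovary direction. A gene was called when its limma p, adjusted by Benjamini-Hochberg over all tested genes, was under 0.05 and its log2 difference was at least 1 in size. The p threshold alone was met by 9224 genes, or 73.0%, of which 3097 were higher in the pituitary and 6127 in the ovary. The size of the difference therefore set most calls, and 98 genes past 1 log2 unit missed the p threshold. In whole organs, fewer cells of a type and less RNA per cell cannot be told apart.

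The excess of ovary genes depended on how libraries were scaled. The median log2 difference of all tested genes was -0.31 on the deposited values, and 63% of genes lay below 0. Scaling each library by the median ratio to the average library moved that median to -0.025, and then 2006 genes were higher in the pituitary and 2418 in the ovary. Quantile normalization gave 2206 and 2231, and rescaling without the 15 genes that take over 1% of the summed FPKM of a library gave 1961 and 2483. The ovary share of the calls fell from 68% to 54.7%, 50.3% and 55.9% in these 3 scalings. In each of the 4 versions the same 1514 genes were called higher in the pituitary and the same 2226 higher in the ovary, and no call changed direction. The last point was largely fixed, since a call needs 1 log2 unit and the median moved only from -0.31 to at most 0.036. That shift also favours pituitary calls, so keeping nearly all of them was to a large part fixed. All other counts below are on the deposited scale.

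**Figure D1:**
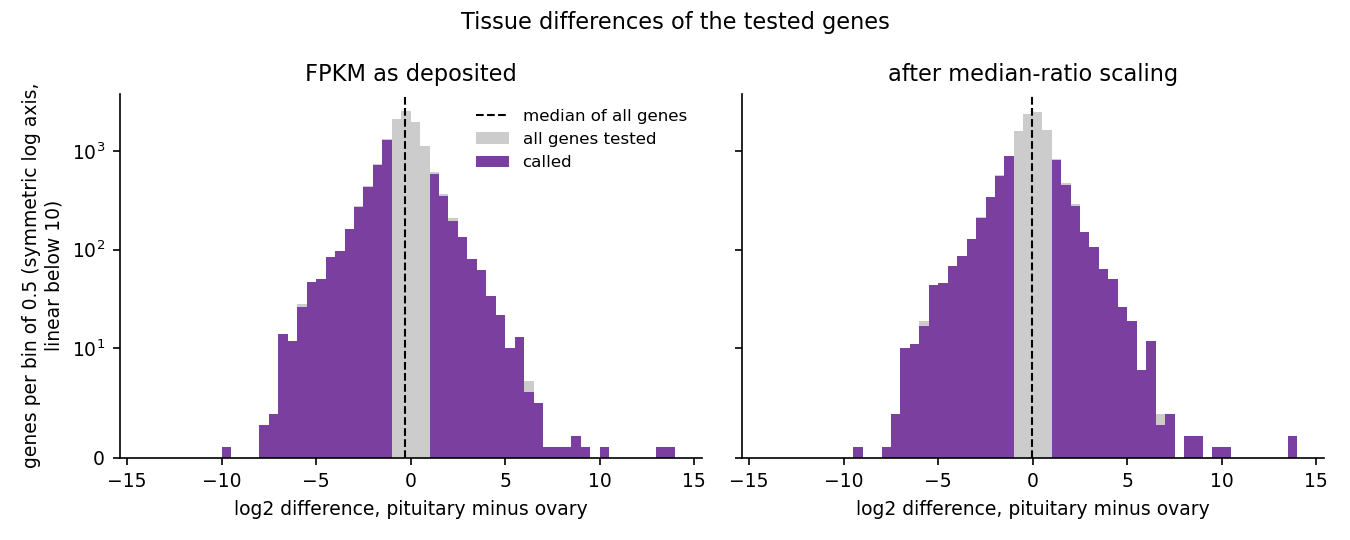
Number of tested genes (symmetric log axis, linear below 10) by log2 difference of pituitary minus ovary in bins of 0.5, with FPKM as deposited on the left and after median-ratio scaling on the right. Purple marks called genes, which by rule lie at least 1 log2 unit from 0, and the dashed line is the median of all genes, at -0.31 on the left and -0.025 on the right.

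Larger differences were found in both directions, in fewer genes at each step. At 4-fold or more (2 log2 units), 574 of the 12638 tested genes were called higher in the pituitary and 1205 in the ovary. At 8-fold these numbers were 242 and 501, and at 32-fold 43 and 107. At 256-fold there were 7 pituitary genes and 1 ovary gene, and at 1024-fold 3 and 0. These last counts depend on the pseudocount: with 0.1 FPKM added in place of 1, they were 19 and 55 at 256-fold, and 9 and 6 at 1024-fold. The median called gene differed by 1.71 log2 units in the pituitary direction and by -1.70 in the ovary direction. Because 1 FPKM was added before the logarithm, weakly expressed genes differ by more than these folds show.

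ENSGALG00000000249 and ENSGALG00000015824 had the largest excess in the pituitary on the log2(FPKM + 1) scale, and their order depends on the pseudocount and on the hens used. The 6 pituitary libraries of ENSGALG00000000249 ranged from 17036 to 54546 FPKM with a median of 24620. Its ovaries stood at 2.68 FPKM in HEP 1, 0.628 in HEP 3, 1.34 in LEP 4, 0.996 in LEP 5 and 0.962 in LEP 6. No ovary came near a pituitary, and the log2 difference was 13.58 (SE 0.28, limma adjusted p = 3.69e-13). Hen by hen it was 12.5, 13.6, 13.5, 14.1 and 14.8 log2 units in hens 1, 3, 4, 5 and 6. ENSGALG00000015824 stood at 8646 to 18708 FPKM in the pituitary (median 13242). It was listed at 0 in the ovaries HEP 1, LEP 4 and LEP 5, and at 0.831 FPKM in HEP 3 and 0.223 in LEP 6. Its log2 difference was 13.47 (SE 0.20, limma adjusted p = 5.02e-14), between 12.8 and 13.9 in the 5 hens. With a pseudocount of 0.1 FPKM the differences were 14.38 for ENSGALG00000000249 and 16.04 for ENSGALG00000015824, and in HEP hens alone 12.97 and 13.32. With the 3 most abundant genes of the table set aside, this pair made up 4.41% to 7.87% of the summed FPKM of each pituitary and no more than 3.75e-04% of any ovary.

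ENSGALG00000027090 had the largest excess in the ovary on the same scale, and its values were 669 FPKM in HEP 1, 1016 in HEP 3, 690 in LEP 4, 608 in LEP 5 and 1373 in LEP 6. The pituitaries lay between 0 and 0.249 FPKM with a median of 0.0975. The groups were far apart in every hen, with a log2 difference of -9.55 (SE 0.18, limma adjusted p = 2.60e-13) and hen values from -10.3 to -9.25. ENSGALG00000023172 stood at 178, 265, 213, 183 and 253 FPKM in the ovaries of hens 1, 3, 4, 5 and 6, a narrow range. In the pituitary it was above 0 in every library, at 0.0283 to 0.0862 FPKM (median 0.0451). The log2 difference was -7.69 (SE 0.12, limma adjusted p = 5.02e-14), between -8 and -7.41 in the 5 hens. With a pseudocount of 0.1 FPKM, the difference was -12.07 for ENSGALG00000027090 and -10.49 for ENSGALG00000023172. In the scalings above, the differences of these 4 genes lay at 13.79 to 13.82, 13.28 to 13.64, -9.40 to -9.13 and -7.54 to -7.38.

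**Figure D2:**
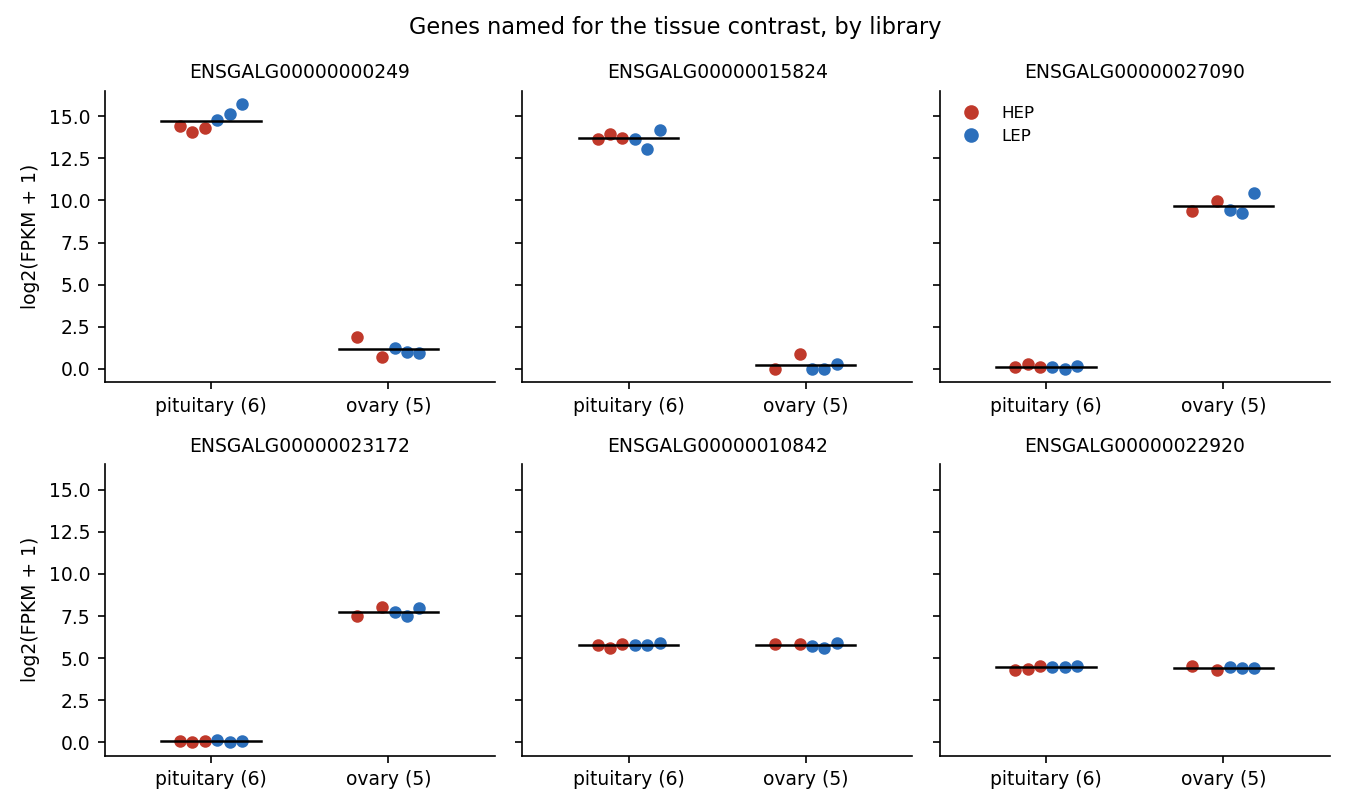
Expression, as log2(FPKM + 1), of the 2 genes with the largest difference in each direction and of the 2 most even genes, in 6 pituitary and 5 ovary libraries. Each point is a hen (red HEP, blue LEP, ordered by hen number) and the bar is the mean of the organ. Points of the organs do not overlap in the first 4 genes and overlap in ENSGALG00000010842 and ENSGALG00000022920.

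Separation of the organs was the rule across the transcriptome. In 7014 tested genes (55.5%) the libraries of the organs did not overlap, 2325 with the pituitary above and 4689 with the ovary above. Of the 4735 called genes 4530 (95.7%) did not overlap and 205 did. The direction was that of the call in all 5 paired hens for 1487 of the 1515 pituitary genes and for 3169 of the 3220 ovary genes, which the choice of called genes largely fixes. The size of the difference varied more, and 981 pituitary genes and 2015 ovary genes exceeded 1 log2 unit in each of the 5 hens. The median paired difference of the pituitary genes was 1.64 to 1.94 over the hens, and that of the ovary genes -1.85 to -1.66. The median over all tested genes was -0.358 to -0.219, below 0 in each hen.

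On the deposited scale, genes with an on and off pattern were more numerous in the ovary, as were called genes. Of the 12638 tested genes, 171 had at least 5 FPKM in every ovary and under 0.5 FPKM in every pituitary, and 47 had the reverse. A stricter form was counted over all 17108 genes. Here 73 genes were listed at exactly 0 in all 6 pituitaries and at 1 FPKM or more in all 5 ovaries. In the reverse direction, 10 genes were listed at 0 in all ovaries and at 1 or more in all pituitaries. At 10 FPKM or more in the organ that expressed them, these became 29 and 5. The 10 had the higher level, with a median of 17.5 FPKM in the pituitary against 9.38 FPKM in the ovary for the 73. An exact 0 in such a table can be a failed estimate, so no fold is given. With up to 0.1 FPKM allowed in place of 0, the numbers were 116 and 25. Ovary libraries had 5 chances to be above 0 and pituitary libraries 6, so the lists are not of equal strictness. None of these counts was repeated in the other scalings.

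ENSGALG00000005212 led the genes listed at 0 in every ovary, with 93.5 to 173 FPKM in the pituitaries (median 133). ENSGALG00000017906 came next, at 22 to 146 FPKM (median 68.5), and was less even between hens. Among genes listed at 0 in every pituitary, ENSGALG00000016770 stood at 72.7, 135, 123, 78.5 and 162 FPKM in the ovaries of hens 1, 3, 4, 5 and 6. ENSGALG00000016771 stood at 82.2, 158, 107, 115 and 158 FPKM in the same order. Both ovary genes were lowest in hen 1 and highest in hen 6, hen 3 tying in the second.

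In the main fit, more genes were expressed evenly than were called. This order reversed with 0.1 FPKM added in place of 1, in LEP hens alone and in the fit of all 16 libraries. For 5792 genes (45.8%) the 95% confidence interval of the log2 difference lay within 1 unit either way, and for 1886 genes (14.9%) within 0.5. Of the 5792, 2710 still met the p threshold with a difference this small. Another 2111 genes (16.7%) were neither called nor shown to be even. ENSGALG00000010842 was the most even gene averaging 10 FPKM or more. Its pituitaries ranged from 48.3 to 58.2 FPKM (median 54.4), and its ovaries stood at 56.3, 55.7, 52.7, 48.4 and 57.7 FPKM in hens 1, 3, 4, 5 and 6. The organs overlapped fully, with a log2 difference of 0.0057 (95% interval -0.17 to 0.18). ENSGALG00000022920 ranged from 18.5 to 22.2 FPKM in the pituitary (median 21.4) and stood at 22.3, 18.7, 20.8, 20.7 and 20.6 FPKM in the ovaries (log2 difference 0.015, 95% interval -0.17 to 0.20). Equality on this scale depends on the scaling: the other scalings placed these genes 0.29 to 0.33 and 0.29 to 0.38 log2 units higher in the pituitary, still within 1 unit. Both then passed the p threshold in each scaling (limma adjusted p = 7.80e-04 to 0.0273 and 0.0015 to 0.0219). In the fit of all 16 libraries, the interval of ENSGALG00000022920 no longer lay within 1 unit.

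Weakly expressed genes were called more often than those of middle level. Level was the mean over the same 11 libraries, so a gene high in a single organ is placed by that organ. This choice can raise the called share at low level, and the shares were not tested. At a mean of 1 to 10 FPKM, 16.2% of 4642 genes were higher in the pituitary, 29.7% were higher in the ovary and 35.6% even. At 10 to 100 FPKM, these shares were 9.49%, 23.2% and 52% of 7243 genes, and at 100 to 1000 FPKM 10.6%, 21.7% and 52.5% of 667 genes. Above 1000 FPKM only 86 genes remained, 7 higher in the pituitary, 17 higher in the ovary and 25 even. The most abundant genes were largely shared. Ranked by median FPKM, 79 of the 100 most abundant genes of the pituitary were also among the 100 most abundant of the ovary, and 653 of the top 1000. Of the 347 genes in the pituitary's top 1000 alone, 169 were called higher there, and of the 347 in the ovary's alone, 265 were.

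On the deposited scale, the organs also differed in how many genes were listed above 0 or reached 1 FPKM. Depth is unknown and bears on both counts. The count at 1 FPKM also depends on scaling, and it was not repeated in the other scalings. Pituitary libraries listed 13713 to 14043 genes above 0 FPKM (mean 13845 ± 122, SD, n = 6) and ovary libraries 14189 to 14356 (mean 14257 ± 76.1, SD, n = 5). The groups did not overlap, with a difference of -412 genes (exact two-sided permutation test over 462 arrangements, p = 0.00433, adjusted p = 0.0152 over 7 measures). At 1 FPKM or more the pituitary had 11686 ± 39.2 genes and the ovary 12187 ± 128 (SD, n = 6 and 5). Again no library overlapped (exact permutation p = 0.00216, the smallest this design allows, adjusted p = 0.0152). Both counts were higher in the ovary in 5 of 5 hens, and an exact sign-flip test on these pairs gave p = 0.0625, the smallest that 5 pairs allow.

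The pituitary held more of its FPKM in few genes once the dominant ones were set aside. All shares here are of summed FPKM, which is divided by transcript length, and are not shares of sequenced fragments. After removal of the 3 most abundant genes of each library, 50% of the summed FPKM lay in 39 to 102 genes in the pituitary (mean 64 ± 24.1, SD, n = 6) and in 88 to 248 genes in the ovary (mean 157.8 ± 69.3, SD, n = 5). The ranges overlapped between pituitary HEP 3 and the ovaries LEP 4 and LEP 5 (exact permutation p = 0.00649, adjusted p = 0.0152), and the number was lower in the pituitary in 5 of 5 hens (exact sign-flip p = 0.0625). With every gene kept, the 10 most abundant genes took 71.3% ± 4.14 of the pituitary and 66.6% ± 10.1 of the ovary (SD, n = 6 and 5), a difference within the spread (exact permutation p = 0.305, adjusted p = 0.427). The shares of the top 1, 3 and 100 genes did not pass either (exact permutation, adjusted p = 0.482, 0.561 and 0.318). Without the 3 most abundant genes, the next 10 took 25.7% to 32.8% of each pituitary and 16.4% to 24.2% of each ovary, with no overlap (exact permutation p = 0.00216). The 3 genes removed were not the same in every library, which bears on this measure and on the number for 50%. ENSGALG00000025698 was removed from every ovary, but not from the pituitaries HEP 1, HEP 3, LEP 4 and LEP 5. There it stood at 15863 to 20880 FPKM and stayed in the sum. Neither measure was repeated with the same genes removed throughout. Leaving out the 4 libraries of highest summed FPKM, described next, the number of genes above 0 differed by -323 and missed the threshold (exact permutation p = 0.0571), while the number at 1 FPKM or more differed by -541 (exact permutation p = 0.0286, the smallest 4 against 3 allows).

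**Figure D3:**
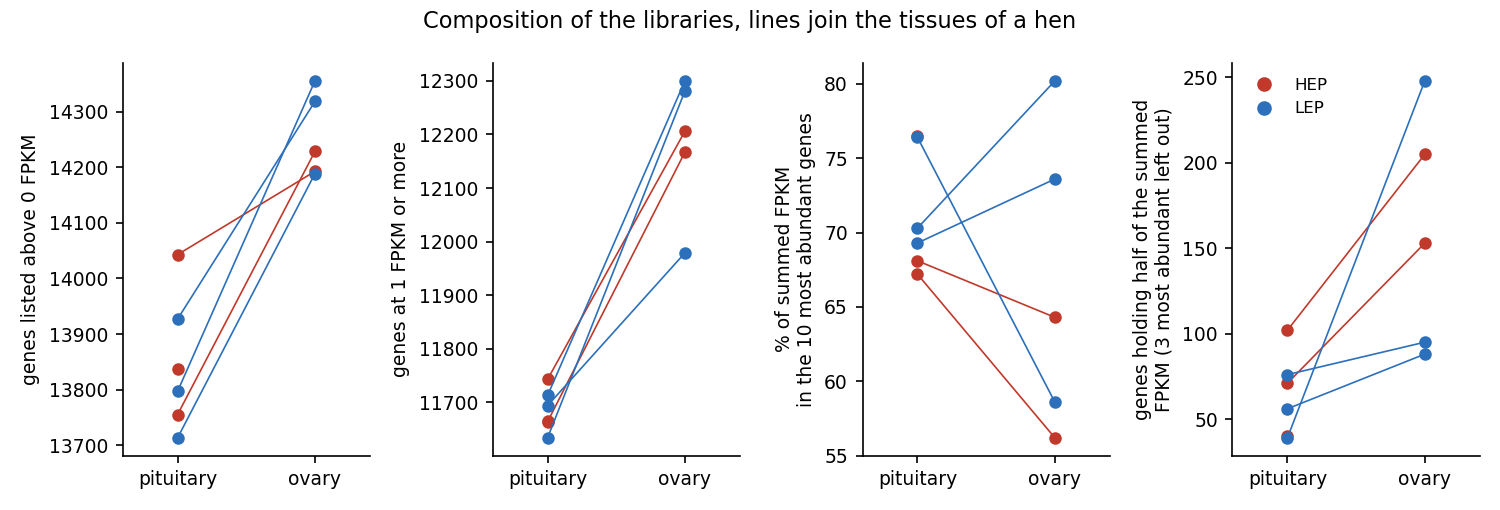
Measures of each library in the pituitary and the ovary, with a line joining the organs of a hen (red HEP, blue LEP; hen 2 has a pituitary only). From left to right the axes give genes above 0 FPKM, genes at 1 FPKM or more, the percent of summed FPKM in the 10 most abundant genes, and the number of genes that hold 50% of the summed FPKM without the 3 most abundant. Both gene counts and the number for 50% are higher in the ovary in 5 of 5 hens, and the share of the top 10 is not. The axes do not start at 0.

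Outside the 3 most abundant genes of the table, the called groups carried a similar part of their own organ. The 1515 pituitary genes made up 22.8% to 26.1% of the remaining FPKM of each pituitary and 3.3% to 3.99% of each ovary. The 3220 ovary genes made up 23.2% to 29.1% of each ovary and 6.78% to 8.11% of each pituitary. The evenly expressed genes held 38.2% to 45.2% of the pituitary and 36.8% to 42.5% of the ovary. These shares describe the chosen groups and are no test. In the other organ the 3220 ovary genes together had a higher share than the 1515 pituitary genes, but they are also the larger group. A share per gene was not compared.

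A few very abundant genes varied between hens in both organs. ENSGALG00000028371 alone accounted for 38.5% to 48.5% of all FPKM in a pituitary and 29.7% to 49% in an ovary, and ENSGALG00000026592 for 10.3% to 19.9% and 7.74% to 14.2%. Because FPKM is divided by transcript length, these are not shares of fragments. The third, ENSGALG00000025698, reached 239313 FPKM in the pituitary HEP 2 and 355739 FPKM in LEP 6, while the other 4 pituitaries stood at 15863 to 20880 FPKM. In the ovaries it stood at 65930 FPKM in HEP 1, 175723 in HEP 3, 660677 in LEP 4, 465195 in LEP 5 and 46246 in LEP 6. These 3 genes were named after their values were seen, as the most abundant of the table. ENSGALG00000017790, the gene of widest range in the pituitary among those averaging 10 FPKM or more with no 0, had the same high libraries. It stood at 19352 FPKM in the pituitary HEP 2 and 17718 in LEP 6, against 292 to 1160 in the other 4, a range of 6.04 log2 units. In the ovaries it was 721 FPKM in HEP 1, 1790 in HEP 3, 13699 in LEP 4, 9709 in LEP 5 and 629 in LEP 6. A difference between the organs was not detected in this gene (log2 difference -0.45, 95% interval -3.07 to 2.17, limma adjusted p = 0.751), an interval too wide to call it even.

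The same 4 libraries had the highest summed FPKM. The sum includes the abundant genes above, so it is not a separate measure. ENSGALG00000028371 alone stood at 1010000 to 1760000 FPKM in these 4 libraries and at 401944 to 686566 FPKM in the other 7. Pituitary HEP 2 and LEP 6 summed to 2371791 and 2879943 FPKM and the ovaries LEP 4 and LEP 5 to 3590865 and 2536523, against 1352249 to 1738588 in the other 7 libraries. They belong to both organs, both production groups and 4 different hens. In a comparison added after this was seen, the 7 other libraries gave 1491 genes higher in the pituitary and 3458 higher in the ovary, and 95.6% of the calls from 11 libraries were kept. The median log2 difference of all genes was then -0.37.

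**Figure D4:**
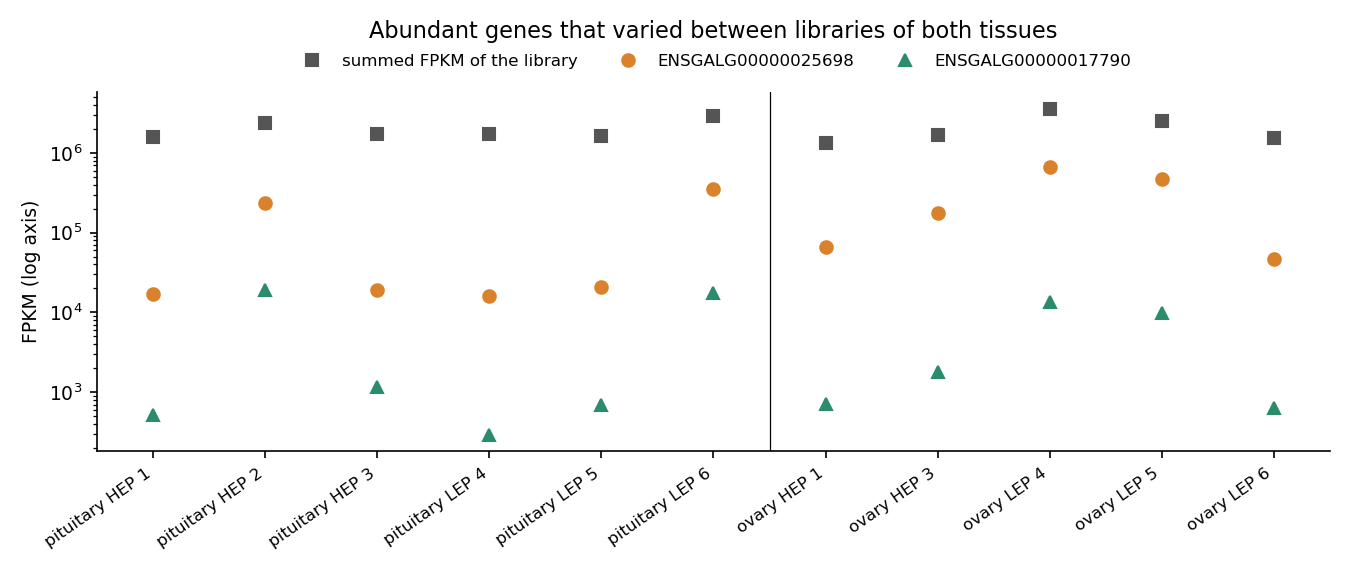
Summed FPKM of each library (squares) and FPKM of ENSGALG00000025698 (circles) and ENSGALG00000017790 (triangles) on a log axis, for 6 pituitary libraries left of the line and 5 ovary libraries right of it. Pituitary HEP 2 and LEP 6 and ovary LEP 4 and LEP 5 are the highest of their organ in all 3 series. The sum includes both genes, so the series are not independent.

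Ranges of 3 log2 units or more between hens were rarer in the pituitary. Among genes that averaged 10 FPKM or more in an organ and were never listed at 0 there, 15 of 7008 pituitary genes (0.214%) and 52 of 7990 ovary genes (0.651%) ranged over 3 log2 units or more, although the pituitary had a library more. The lists shared 6 genes, 40% of the pituitary list and 11.5% of the ovary list. In the ovary list LEP 4 was the highest library for 35 genes and LEP 5 the lowest for 30, and in the pituitary list LEP 6 was highest for 6 and HEP 2 for 4. The ovary list thus leans on few libraries, and the counts were neither tested nor repeated without them. The median range went the other way, at 0.583 log2 units in the pituitary and 0.529 in the ovary. The widest ovary gene was ENSGALG00000017183, at 25.9 FPKM in HEP 1, 22.7 in HEP 3, 1.39 in LEP 4, 341 in LEP 5 and 9.25 in LEP 6. Its range of 7.16 log2 units became 3.49 without LEP 5. In the pituitary this gene did not exceed 0.535 FPKM (log2 difference -4.17, SE 0.88, limma adjusted p = 7.57e-04). Over all tested genes a difference in typical spread between the organs was not detected, which does not show that they are alike. The median of an organ includes the library measured and rests on 6 or 5 libraries, so the measure is not strictly comparable. The median distance of a library from the median of its organ was 0.135 ± 0.0552 log2 units in the pituitary (SD, n = 6) and 0.128 ± 0.0389 in the ovary (SD, n = 5; exact two-sided permutation test, p = 0.868), and the pituitary LEP 6 was the farthest, at 0.229.

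The organ difference held in either production group. HEP hens alone (3 pituitaries and 2 ovaries) gave 4732 called genes of 12571 (37.6%), 1521 higher in the pituitary and 3211 in the ovary. In LEP hens alone (3 and 3) 4703 of 12622 were called (37.3%), 1536 and 3167. These fits share no hen. They called 4151 genes in the same direction, 87.7% of the HEP calls and 88.3% of the LEP calls, and 0 genes in opposite directions. The difference between the production groups was tested directly as an interaction of organ and production in limma. It passed the adjusted threshold for 2 of 12638 genes (0.0158%), 1 in each direction. An unadjusted p under 0.05 was found for 131 of the 12638 genes, fewer than evenly spread p would give. The test was thus cautious here, and few passing genes do not show that the production groups are alike. With a median SE of 0.314 log2 units for the interaction, small differences between the groups were not detectable. Large ones could also be missed: ENSGALG00000020982, with a fitted interaction of 3.1 log2 units, did not pass (limma adjusted p = 0.219).

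Both genes that passed were listed at 0 throughout whole groups. ENSGALG00000018384 reached 18612 FPKM in the ovary HEP 1 and 21880 FPKM in HEP 3, and was listed at 0 in the other 9 libraries (limma adjusted p = 7.93e-12). In the hypothalamus it was also high in the same hens, at 31851 FPKM in HEP 1 and 39942 FPKM in HEP 3, and listed at 0 in the 3 LEP libraries. Of these hypothalamus libraries, LEP 5 and LEP 6 listed only 6843 and 6465 genes above 0, which limits what a 0 there shows. LEP 4 listed 13807, and HEP 1, where the gene was high, 6186. ENSGALG00000021743 reached 113, 87.9 and 39.7 FPKM in the ovaries LEP 4, 5 and 6, and was listed at 0 in the other 8 libraries (limma adjusted p = 1.90e-04) and in all 5 hypothalamus libraries. Groups at 0 add no spread to the error of these tests. The next lowest p in each direction belonged to ENSGALG00000020982 (positive) and ENSGALG00000000695 (negative). The first was listed at 0 in every ovary, and stood at 4.58, 15.4 and 9.99 FPKM in the HEP and 0.102, 0.271 and 0.125 FPKM in the LEP pituitaries (limma adjusted p = 0.219, and 0.00959 without the pituitary HEP 1). In the ovary the second had 19.2 FPKM (HEP 1), 18.1 (HEP 3), 12.2 (LEP 4), 6.94 (LEP 5) and 8.57 (LEP 6), against 5.35 to 7.18 FPKM in the pituitaries (interaction -1.21 log2 units, SE 0.28, limma adjusted p = 1). Leaving out the ovary HEP 1 raised the 2 interaction genes to 7, and the count was 5 without the ovary HEP 3 and 4 without the ovary LEP 6. Without either HEP ovary a single one is left, which is then assumed to vary like the other groups.

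The hypothalamus, the organ above the pituitary in the axis, was not used to choose the groups. In its libraries HEP 3 and LEP 4, which listed 13737 and 13807 genes above 0, the pituitary genes and the ovary genes were present in similar shares. At 1 FPKM or more stood 77.6% and 74.5% of the pituitary genes, 78.4% and 74.8% of the ovary genes, and 96.3% and 94.8% of the evenly expressed genes. Over all tested genes the share was 87.9% and 85.6%. Of the on and off genes, 23 and 20 of the 47 for the pituitary reached 1 FPKM in these hypothalamus libraries, against 19 and 19 of the 171 for the ovary. In these stricter groups the pituitary share was thus the larger. The hypothalamus libraries HEP 1, LEP 5 and LEP 6 listed only 6186, 6843 and 6465 genes above 0. There the shares were 28.7% to 40.8% of the pituitary genes, 32.5% to 37% of the ovary genes and 51.1% to 56.5% of the even genes. Over all tested genes they were 41.7% to 47.4%. Of the on and off genes, 2 to 5 of the 47 and 8 to 11 of the 171 stood at 1 FPKM or more. These shares are given without a test, and the choice of the groups bears on them. Even genes made up 35.6% of genes at a mean of 1 to 10 FPKM and 52% at 10 to 100 FPKM. Called genes can pass the filter through a single organ.

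**Figure D5:**
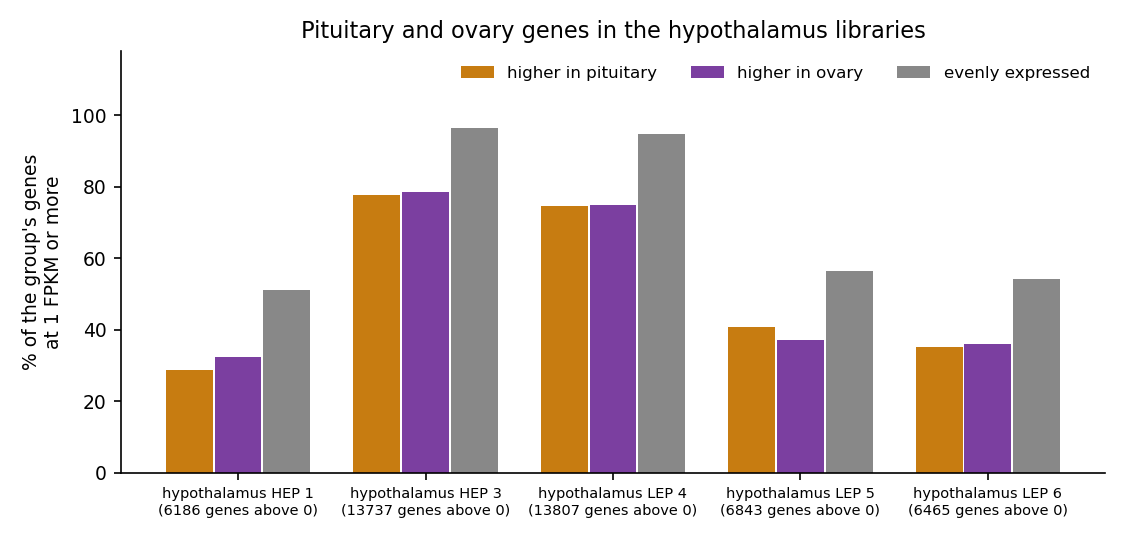
Percent of genes at 1 FPKM or more in each of 5 hypothalamus libraries, for the 1515 genes higher in pituitary, the 3220 higher in ovary and the 5792 evenly expressed. The number of genes above 0 in each library is under its name. Evenly expressed genes, which by choice are present in both organs, are the highest group in every library, at 51.1% to 96.3%.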

How the data were processed

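RNA was purified with a Qiagen RNeasy column kit and sequenced on an Illumina instrument, per the labels' protocols. The values are FPKM as deposited by the authors, with 1 column per library. For the aligner, counter, build and annotation, the software is not given in the sources used here. FPKM is divided by gene length and library size, and the sums differ between libraries. Depth is unknown. For pairs of libraries of an organ, the ratios of genes under 0.3 FPKM fell within 0.05 (log2) of the commonest ratio in 5.01% to 20.2% of cases, too few to recover whole reads, so no counting interval is given.

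Values were taken as log2(FPKM + 1), and genes with a mean of at least 1 FPKM over the 11 libraries were fitted with limma 3.58.1 (empirical Bayes with trend, two-sided) in R 4.3.3, with organ as the only term. This treats the organs of a hen as independent. The labels tie the organs of 5 hens together. Deviations from the group means correlated between the organs of a hen at r of -0.0366 to 0.142 across genes. Hen as a block is an alternative. Library measures were compared by exact permutation tests. Whether a hen's samples were processed apart is not stated. The scripts were tested on simulated data.

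Named genes were the 2 of largest difference in each direction among called genes without overlap, the 2 of highest median in each direction among genes listed at 0 in an organ, the 2 of lowest p in each direction for the interaction, the 2 most even with a mean of 10 FPKM or more, and the gene of widest range in each organ. The reference gene table (assembly GRCg7b, 25635 genes) holds 0 Ensembl identifiers, so lists by symbol and sequences are not used here. The contrast, gene groups and tests were chosen with earlier results of these data known.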

Additional observations from a re-analysis of the deposited data

Results flagged for a closer look

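Across 41 sets of values of an organ (named genes and library measures), 2 held a library far from the others. That is near the share that chance gives, about 5% of sets. Gene values were taken as FPKM without a logarithm, where that 5% need not hold. ENSGALG00000015824, 1 of the 2 genes of largest excess in the pituitary, was listed at 0.831 FPKM in the ovary HEP 3 and at no more than 0.223 FPKM in the other 4 ovaries. ENSGALG00000017183 stood at 341 FPKM in the ovary LEP 5 and at 1.39 to 25.9 FPKM in the other 4 ovaries. It was named for its wide range in the ovary, so its flag follows largely from that choice.

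The organ difference was not alike in HEP and LEP hens for 2 genes by the limma interaction test. The fitted value of HEP minus LEP was 6.22 log2 units for ENSGALG00000021743 (adjusted p = 1.90e-04) and -14.3 for ENSGALG00000018384 (adjusted p = 7.93e-12). Both rest on groups listed at 0 in every library, so these fitted values depend on the pseudocount and are no measure of size.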

How the results depend on the processing

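The number of called genes lay between 3249 and 5255 in the alternatives that kept the call rule, and no called gene changed direction. A call needs 1 log2 unit and the alternatives share libraries with the main analysis, so the lack of reversals was largely fixed. A test against 1 log2 unit (limma treat) called 3006 genes, 969 higher in the pituitary and 2037 higher in the ovary, and the adjusted p alone 9224, 3097 and 6127. With hen as a replicate block (5 hens) 1527 and 3147 genes were called and 96.7% of the main calls were kept, and with hen as a random effect (correlation 0.174) 1516 and 3205. Under the block the named genes of the contrast and the interaction stayed on the same side of the threshold. Leaving out a library gave 4557 to 4842 calls, 1455 to 1569 for the pituitary, 3031 to 3344 for the ovary, and leaving out a hen 4631 to 4836. Evenly expressed genes numbered 1886 for an interval within 0.5, 1084 in the fit of all 16 libraries, 5335 to 5802 with a library or hen left out, and 7936 at most, with no filter. Without the filter weakly expressed genes enter, and the added 1 FPKM makes their differences smaller. With 0.5 and 0.1 FPKM added in place of 1, the even genes numbered 5441 and 5149. Genes listed at 0 in the ovary were 25 and in the pituitary 116 with up to 0.1 FPKM allowed, and 20 and 105 without the 4 libraries of highest summed FPKM, where fewer libraries must be at 0.

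The paired sign-flip gave differences of -410 genes above 0, -497 genes at 1 FPKM and -89 genes for 50% of the FPKM, each with an exact p of 0.0625. Without the 4 libraries the number of genes above 0 differed by -323. The share of the top 10 genes differed by 4.74 percentage points in the main analysis and by 2.14 to 8.14 with a library left out. Without the 3 most abundant genes of each library it differed by 8.66 (exact permutation p = 0.00216, paired sign-flip p = 0.0625). Without the 4 libraries it differed by 9.03 (exact permutation p = 0.0286, the smallest possible there). These p are not adjusted, and leaving out the 4 libraries was decided after their values were seen. The spread between hens had no stable sign, at 0.00684 in the main analysis, -0.00987 with quantile normalization and -0.0221 to 0.00989 with a library left out. The interaction gave 2 to 7 genes with a library left out and 3 with hen as a replicate block. The cause of these changes was not tested. Depth per library is unknown and limits weak genes most.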

Other observations

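The genes named for the organ contrast were also read in the hypothalamus, which was not used to choose them. ENSGALG00000000249 lay between 4.58 and 19.8 FPKM across the 5 hypothalamus libraries, above all ovaries and below all pituitaries. ENSGALG00000015824 varied widely there, at 0.775 FPKM in HEP 1, 72.5 in HEP 3, 0.695 in LEP 4, 510 in LEP 5 and 16.3 in LEP 6. The ovary gene ENSGALG00000027090 did not exceed 3.2 FPKM in the hypothalamus and ENSGALG00000023172 did not exceed 0.5 FPKM. ENSGALG00000017906, listed at 0 in every ovary, had 45.9 FPKM in the hypothalamus of HEP 3, had 29.9 FPKM in that of LEP 4, and was listed at 0 in the other 3. Those 3 libraries, HEP 1, LEP 5 and LEP 6, listed only 6186, 6843 and 6465 genes above 0, against 13737 in HEP 3 and 13807 in LEP 4. A 0 in them therefore carries little weight.

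Values that switched between 0 and at least 10 FPKM within an organ were found for 114 tested genes in the pituitary and 98 in the ovary, 56 of them in both. Of the 156 genes in either list, 18 (11.5%) were called, against 37.5% of all tested genes. The choice of these genes largely fixes this low share, since a wide range within an organ raises the error of the fit.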
